A study of Homo sapiens with 36 samples.

Results

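This report describes 10 genes of the MHC and antigen presentation pathway in human U2OS ER-HA-E2F1 osteosarcoma cells, chosen by name: HLA-E, HLA-F, HLA-DRA, HLA-DMA, B2M, TAP1, TAP2, TAPBP, PSMB9 and BTN3A2. The array annotation gave them 21 of the 22215 probe sets tested, and 1 of the 21 (204820_s_at) names BTN3A3 as well as BTN3A2. RNA was measured on 36 Affymetrix oligonucleotide arrays. The cells had received 1 of 2 siRNAs targeting NFYB (Ambion, Dharmacon), or a Dharmacon or a Sigma-Aldrich negative control siRNA. All cells carried the retroviral, puromycin-selected ER-HA-E2F1 fusion, which enters the nucleus when 4-hydroxytamoxifen (OHT) is added, and all were serum starved for 24 h and then given 80 nM OHT for 0, 4 or 8 h. Each of the 12 combinations of siRNA and time had 3 biological replicates, so that NFYB siRNA and control siRNA had 6 arrays each at every time. No arrays without the fusion or without OHT at 4 and 8 h were part of the experiment, so a change with time that comes from E2F1, from the OHT or from the longer starvation cannot be told apart.

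MHC class I molecules show peptides from inside the cell to CD8 T cells and natural killer cells. The proteasome, with subunits such as PSMB9, cuts the peptides, the TAP1 and TAP2 transporter carries them into the endoplasmic reticulum, and tapasin (TAPBP) helps to load them onto a heavy chain paired with beta-2-microglobulin (B2M). Class II molecules such as HLA-DR show peptides from outside the cell, are loaded with the help of HLA-DM, and are largely restricted to professional antigen-presenting cells unless interferon gamma is present. Promoters of both classes carry a CCAAT box, the sequence bound by NF-Y, a trimer of NFYA, NFYB and NFYC that at MHC promoters sits beside the RFX and CREB factors.

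Promoter sequences are given for the genes on which the results turn: BTN3A2 and HLA-F, lower with NFYB siRNA on several probe sets; TAP1 and PSMB9, which both rose with OHT; and B2M, for which no probe set was called with NFYB siRNA. Each is the 250 bases before the RefSeq start site (GRCh38.p14), written 5′ to 3′ on the gene's strand, with CCAAT or its complement ATTGG in capitals. They lie at chr6:26364948-26365197 (BTN3A2, plus strand, the first of 2 listed promoters), chr6:29723184-29723433 (HLA-F, plus), chr6:32853705-32853954 (TAP1, minus, the first of its listed promoters), chr6:32853942-32854191 (PSMB9, plus) and chr15:44711267-44711516 (B2M, plus).
BTN3A2: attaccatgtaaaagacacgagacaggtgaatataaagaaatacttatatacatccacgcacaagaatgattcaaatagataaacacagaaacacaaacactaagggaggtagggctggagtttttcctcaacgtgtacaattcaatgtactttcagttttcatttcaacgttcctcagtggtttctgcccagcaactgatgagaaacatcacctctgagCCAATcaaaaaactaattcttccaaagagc
HLA-F: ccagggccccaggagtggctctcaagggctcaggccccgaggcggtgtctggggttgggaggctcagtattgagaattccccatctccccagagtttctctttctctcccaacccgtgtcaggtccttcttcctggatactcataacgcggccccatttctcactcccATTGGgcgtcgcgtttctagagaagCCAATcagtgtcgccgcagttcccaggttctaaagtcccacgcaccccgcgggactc
TAP1: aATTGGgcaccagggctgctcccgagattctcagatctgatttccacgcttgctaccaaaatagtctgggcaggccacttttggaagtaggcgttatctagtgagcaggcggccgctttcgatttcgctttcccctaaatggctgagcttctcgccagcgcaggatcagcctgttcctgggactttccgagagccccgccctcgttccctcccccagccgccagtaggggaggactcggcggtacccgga
PSMB9: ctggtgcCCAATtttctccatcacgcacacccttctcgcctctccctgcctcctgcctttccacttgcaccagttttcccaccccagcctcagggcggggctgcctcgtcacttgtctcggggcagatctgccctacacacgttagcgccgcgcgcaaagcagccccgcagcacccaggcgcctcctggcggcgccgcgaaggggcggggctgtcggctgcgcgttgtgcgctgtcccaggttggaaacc
B2M: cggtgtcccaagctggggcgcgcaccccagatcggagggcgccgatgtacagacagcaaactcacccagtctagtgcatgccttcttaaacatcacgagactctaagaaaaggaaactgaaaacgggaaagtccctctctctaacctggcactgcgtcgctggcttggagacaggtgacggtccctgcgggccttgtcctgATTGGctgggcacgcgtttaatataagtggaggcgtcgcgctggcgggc

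The RefSeq promoter table held 10 windows for 8 of the 10 genes, each running 250 bases before to 50 bases after a start site. CCAAT, searched on both strands, was found for 6 of the 8 genes (HLA-F, HLA-DMA, B2M, TAP1, PSMB9 and BTN3A2) and in 34.6% of all 35116 windows. For 4 genes it lay in the last 100 bases before the start site, where 18.1% of all windows had it: HLA-F and HLA-DMA had 2 matches there, B2M and BTN3A2 had 1. The BTN3A2 match lay 30 to 26 bases before the start, and the window of its other promoter had none. RefSeq starts the BTN3A2 gene itself at 26365169, inside the match (26365168 to 26365172), so for transcripts that begin there the 5 bases span the start. TAP1 and PSMB9 are transcribed away from each other from starts 488 bases apart, and the CCAAT of both windows is the same 5 bases, chr6:32853949-32853953. GAAANNGAAA, a pattern of interferon-response elements searched on both strands with matches allowed to overlap, was found for 5 genes, HLA-F, B2M, TAP1, TAP2 and TAPBP, and in 3.57% of all windows. E2F patterns (TTTCCCGC, TTTCGCGC, TTTGCCGC or TTTGGCGC, both strands) were found for 0 of the 8 genes and in 3.31% of all windows, which says only that these letters are not in these windows. A gene was counted if any of its windows matched, whereas the percentages are shares of windows, so they are not like for like. The second windows of TAP1 and of BTN3A2 held none of these patterns.

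The values are MAS5 signals, linear intensities that the authors scaled to a common trimmed mean, and array medians ran between 100.5 and 119.7. Their log2 was compared with limma, two-sided, and a change was called where p, adjusted for all probe sets tested, was below 0.05. Replicate arrays of a condition had Pearson correlations of 0.979 to 0.991 over probe sets. NFYB itself was lower with its siRNAs on all 3 of its probe sets at every time, with log2 changes of -2.44, -3.58 and -2.56 at 8 h, where the set with -3.58 read 34.1 to 109.5 (median 72.6) with NFYB siRNA and 703 to 813 (median 788) with control siRNA. Of 5 osteoblast lineage markers 3 lay in the upper 60% of probe sets by mean log2 signal, no larger a share than of all probe sets. RUNX2 and COL1A2 lay below it, at percentiles 21.9 and 25.9, so the count does not show the lineage. Of 11 leukocyte markers 1 lay in the upper 60%, and no leukocyte marker was called with NFYB siRNA (summed signal 298 to 369 with NFYB siRNA and 218 to 315 with control siRNA at 0 h, and 171 to 302 with NFYB siRNA and 246 to 355 with control siRNA at 8 h). Of the 21 probe sets described here 15 lay in the upper 60%, and the 6 dim ones were both sets for HLA-DRA, the set for HLA-DMA, 1 of 3 for HLA-F and 2 of 3 for TAP2. Bulk arrays cannot tell fewer cells expressing a gene apart from less RNA per cell.

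With NFYB siRNA, 3 of the 21 probe sets (14.3%) were called at 0 h, all lower, against 3.58% of all probe sets tested (1.58% higher and 2.0% lower). At 4 h 2 were called (9.52%), both lower, against 2.93% of all (1.48% higher and 1.45% lower). At 8 h 5 were lower and 1 higher (28.6%), against 4.65% of all (2.18% higher and 2.46% lower). The median log2 change of the 21 was -0.09, -0.16 and -0.20 at 0, 4 and 8 h, beside 0.00, -0.01 and -0.03 over all probe sets tested. All of the calls belonged to BTN3A2, to HLA-F or, for the single higher one, to a dim TAP2 set. The probe sets of 1 gene measure the same RNA, so these counts are of probe sets and not of independent genes. The genes were also chosen with earlier results of these arrays known. The paper lists BTN3A2 and TAP2 among the genes changed by NFYB knockdown in the same arrays. The shares above those of all probe sets therefore cannot be read as a property of MHC genes. At 0 h the summed signal of 27 interferon-response genes, described further on, was also lower. It was 3585 to 4150 with NFYB siRNA and 4111 to 4871 with control siRNA. At 4 h it was 2424 to 2957 (NFYB siRNA) and 2670 to 3108 (control siRNA). At 8 h it was 2194 to 2486 (NFYB siRNA) and 2245 to 2633 (control siRNA). Between the 2 control siRNAs 3 of the 27 were higher with the Dharmacon one and 8 lower (10.5% and 15.2% of all probe sets). Their median was -0.37 there and -0.23 with NFYB siRNA at 0 h. The part of these genes in the HLA-F and BTN3A2 results was not tested.

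**Figure D1:**
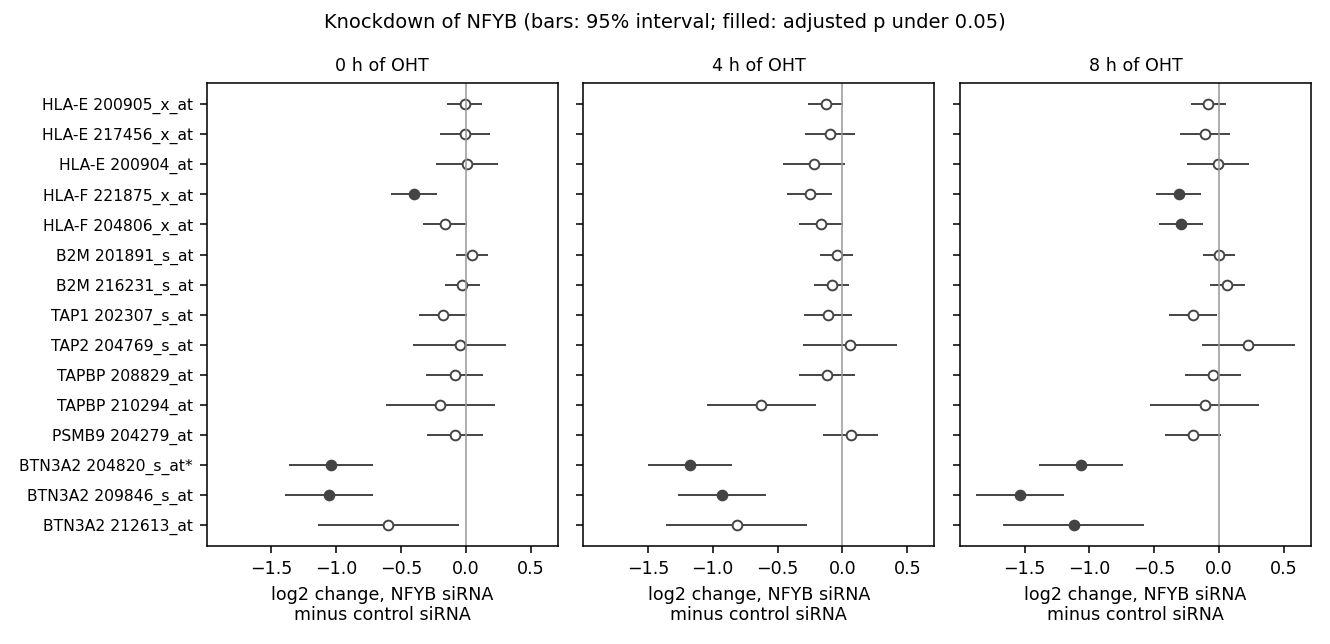
Log2 change between NFYB siRNA and control siRNA (horizontal axis) at 0, 4 and 8 h of OHT for the 15 probe sets in the upper 60% by signal, with 95% intervals; filled points have a limma adjusted p under 0.05, and the star marks the set that also names BTN3A3. The BTN3A2 sets lie between -0.60 and -1.54, the HLA-F sets between -0.16 and -0.40, and both B2M sets between -0.08 and 0.06.

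BTN3A2, a butyrophilin whose gene lies in the extended class I region of chromosome 6 (GRCh38.p14, chr6:26365169-26378320) and whose family takes part in activating gamma delta T cells, had the lowest adjusted p of the 10 genes with NFYB siRNA at each time. Probe set 209846_s_at had signals of 76.3 to 118 (median 83.2) in NFYB siRNA cells at 0 h, against 163 to 221 (median 181) in control siRNA cells. At 4 h it had 42.3 to 70.5 (median 63.0) with NFYB siRNA and 92.0 to 140.1 (median 114) with control siRNA. At 8 h it had 23.1 to 40.1 (median 25.7) with NFYB siRNA and 58.0 to 101 (median 87.2) with control siRNA. The groups did not overlap at any time. The log2 changes were -1.06 ± 0.17, -0.93 ± 0.17 and -1.54 ± 0.17 (SE, n = 6 arrays per group) at 0, 4 and 8 h, the last a 2.90-fold lower signal (limma, adjusted p = 6.58e-08). Here, as in the other comparisons of 6-array groups, the fit takes the 6 arrays as independent, although 3 come from each of 2 siRNAs.

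The set shared with BTN3A3, 204820_s_at, gave -1.04 ± 0.16, -1.17 ± 0.16 and -1.06 ± 0.16 at 0, 4 and 8 h (limma, adjusted p = 4.65e-05, 6.73e-06 and 3.67e-05). Its signals at 8 h were 34.5 to 73.4 (median 52.5) with NFYB siRNA and 69.4 to 141 (median 118) with control siRNA, and 5 of 6 NFYB siRNA arrays lay below every control array. Probe set 212613_at, which names BTN3A2 alone, gave -0.60 at 0 h and -0.82 at 4 h, neither called (limma, adjusted p = 0.265 and 0.0993), and -1.12 ± 0.27 at 8 h (adjusted p = 0.00976). At 8 h its signals were 8.52 to 36.3 (median 28.7) with NFYB siRNA and 39.6 to 63.4 (median 54.2) with control siRNA, with no overlap. Its 8 h call was lost with siRNA as a random block (limma, adjusted p = 0.0512), with the Dharmacon NFYB siRNA alone (0.0517) and with the Sigma-Aldrich control alone (0.113). It was also lost on leaving out all arrays numbered 1, 2 or 3 (limma, adjusted p of 0.0538 to 0.17), while leaving out any single array kept it.

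Both NFYB siRNAs gave lower BTN3A2 signals than both control siRNAs. Over the 4 pairings of an NFYB with a control siRNA, 209846_s_at ran between -1.23 and -0.88 at 0 h, -0.97 and -0.88 at 4 h, and -1.74 and -1.34 at 8 h. The 2 NFYB siRNAs were not called different on any BTN3A2 set, with Ambion minus Dharmacon values of 0.15, 0.19 and -0.01 (limma, adjusted p of 0.4 or more). These are means over the 3 times, and for 212613_at opposite values stand behind the last: against the pooled controls the changes were -0.28 (Ambion) and -0.91 (Dharmacon) at 0 h, and -1.43 (Ambion) and -0.82 (Dharmacon) at 8 h. On 204820_s_at at 8 h they were -0.75 (Ambion) and -1.38 (Dharmacon).

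**Figure D2:**
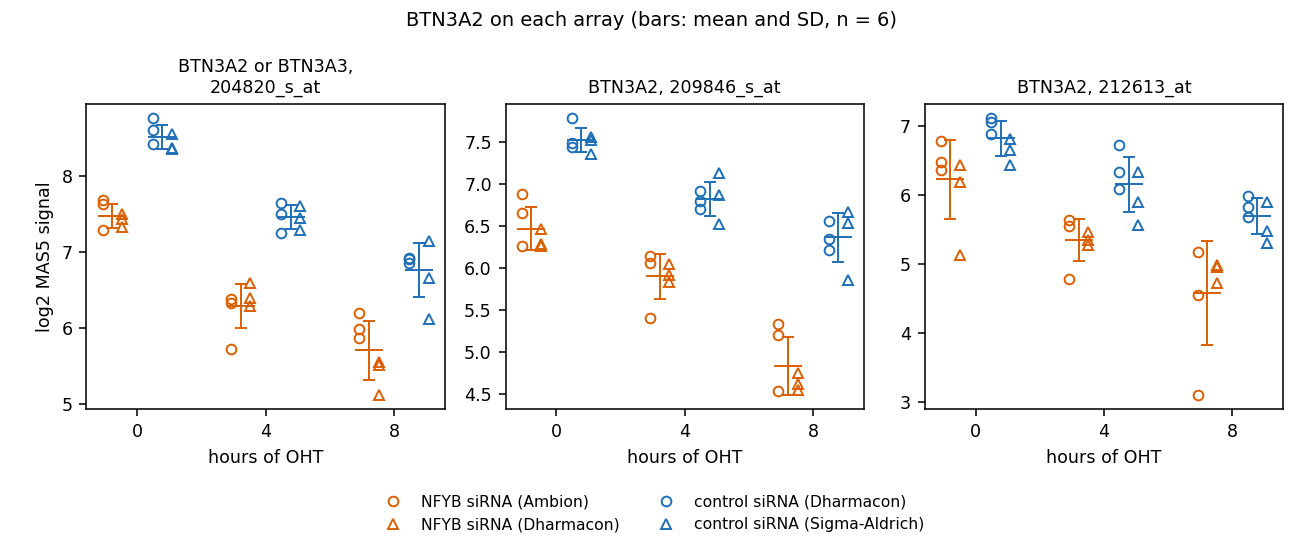
Log2 MAS5 signal of the 3 BTN3A2 probe sets on each array (vertical axis) by hours of OHT, NFYB siRNA in orange on the left and control siRNA in blue on the right, with symbols for the siRNA and bars for the mean and SD of 6 arrays. On 209846_s_at every NFYB siRNA array lies below every control array at its time, and both arms are lower at 8 h than at 0 h.

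HLA-F, a nonclassical class I heavy chain (chr6:29723434-29738532), was lower with NFYB siRNA by less than BTN3A2. Probe set 221875_x_at had signals of 879 to 1026 (median 963) with NFYB siRNA and 1079 to 1516 (median 1213) with control siRNA at 0 h, with no overlap. Its log2 changes at 0, 4 and 8 h were -0.40 ± 0.09, -0.25 ± 0.09 and -0.31 ± 0.09, the first and the last being called (limma, adjusted p = 0.00405, 0.116 and 0.0271). A second set, 204806_x_at, gave -0.16 at 0 h and at 4 h, neither called, and -0.29 ± 0.08 at 8 h (limma, adjusted p = 0.0346). Its signals at 8 h were 515 to 663 (median 582) with NFYB siRNA and 662 to 794 (median 716) with control siRNA, and 5 of 6 NFYB siRNA arrays lay below every control array. The dim set 221978_at was not called at any time. Names ending in x_at mark probe sets whose probes can also bind related transcripts, here those of other class I heavy chains.

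The HLA-F calls depended on the control siRNA and on single arrays. The Dharmacon control gave a higher 221875_x_at signal than the Sigma-Aldrich control, by 0.27 ± 0.05 over the 3 times (limma, adjusted p = 0.000161, 7 of 9 arrays above all 9 of the other), and against the Sigma-Aldrich control alone the change with NFYB siRNA was -0.25 at 0 h and -0.14 at 8 h (0.057 and 0.364). With the Ambion siRNA alone it was -0.35 at 0 h (limma, adjusted p = 0.104), and leaving out all arrays numbered 1 or 3 also ended the 0 h call (0.126 and 0.0853), whereas no single array did. At 8 h the call of 221875_x_at was lost on leaving out Dharmacon control replicate 1, 2 or 3, Ambion NFYB replicate 2 or Dharmacon NFYB replicate 1 (-0.29 to -0.25, limma, adjusted p of 0.0552 to 0.105). That of 204806_x_at was lost without Dharmacon control replicate 2, Sigma-Aldrich control replicate 2 or 3, Ambion NFYB replicate 1 or Dharmacon NFYB replicate 2 or 3 (-0.29 to -0.25, limma, adjusted p of 0.065 to 0.107). With siRNA as a random block the 8 h adjusted p (limma) was 0.0519 for 221875_x_at and 0.13 for 204806_x_at. The sign was negative for all 4 pairings of siRNAs on both sets at every time.

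HLA-E (chr6:30489509-30494194), the ligand of the inhibitory NKG2A receptor of natural killer cells, was called on none of its 3 probe sets with NFYB siRNA. Set 200905_x_at had signals of 1112 to 1305 (median 1177) with NFYB siRNA and 1178 to 1366 (median 1249.6) with control siRNA at 8 h, a change of -0.08 with a 95% interval of -0.22 to 0.05. Over the 3 sets and 3 times the changes ran between -0.22 and 0.01. B2M, the light chain shared by class I molecules (chr15:44711517-44718145), averaged 13170 ± 989 with NFYB siRNA and 13179 ± 846 with control siRNA on 201891_s_at at 8 h (SD, n = 6 each). The 95% intervals of its 8 h change were -0.13 to 0.12 on that set and -0.07 to 0.20 on 216231_s_at. Whether such bright probes were near saturation was not tested.

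**Figure D3:**
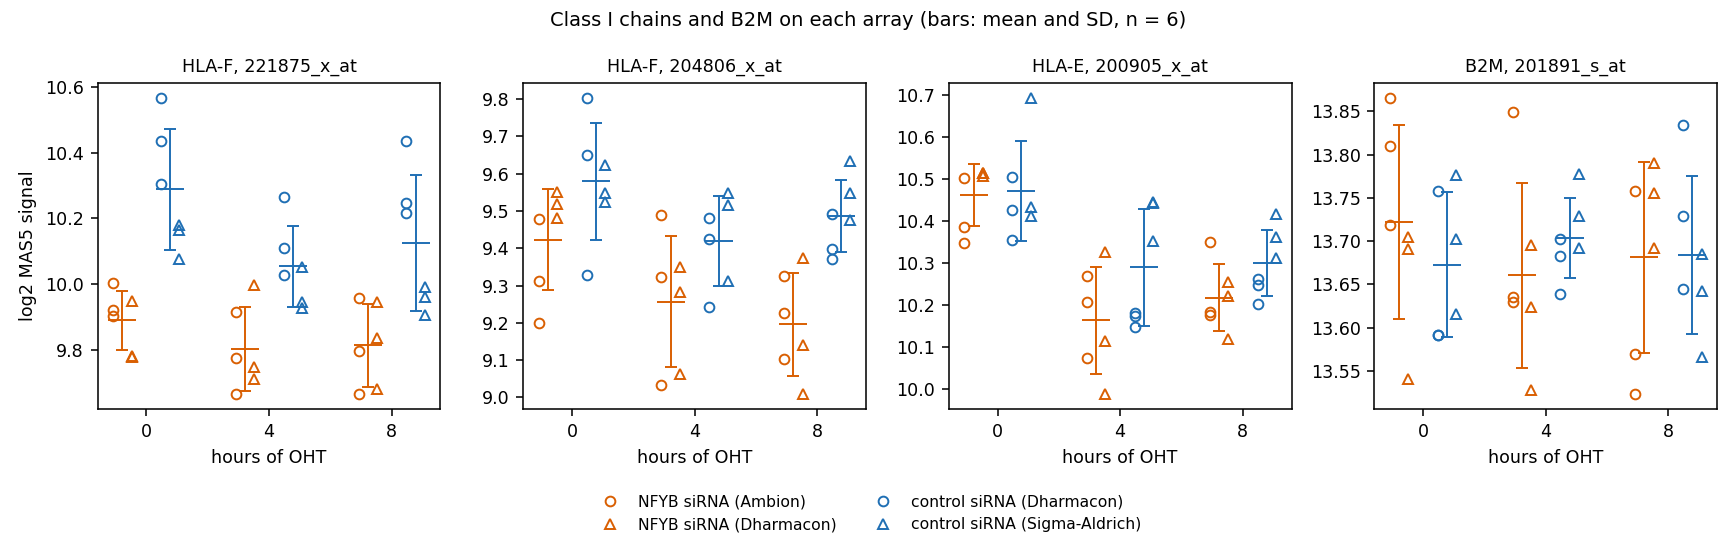
Log2 MAS5 signal of HLA-F, HLA-E and B2M probe sets on each array (vertical axis, a separate scale per panel) by hours of OHT, NFYB siRNA on the left and control siRNA on the right, with bars for the mean and SD of 6 arrays. The means of both HLA-F sets shown, 221875_x_at and 204806_x_at, are lower with NFYB siRNA at every time, with 221875_x_at of the Dharmacon control (blue circles) above the Sigma-Aldrich control, while HLA-E and B2M overlap at every time.

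For the genes that supply and load peptides, 0 probe sets in the upper 60% were called with NFYB siRNA at any time. At 8 h the log2 changes were -0.20 ± 0.09 for TAP1 (limma, adjusted p = 0.235), -0.20 ± 0.11 for PSMB9 (0.35), 0.23 ± 0.18 for TAP2 (204769_s_at, 0.59), and -0.05 ± 0.11 and -0.11 ± 0.21 for the TAPBP sets (0.897 and 0.862). Against the Dharmacon control alone TAP1 gave -0.39 at 8 h and PSMB9 -0.35 at 0 h (limma, adjusted p = 0.0179 and 0.0393). With the Dharmacon NFYB siRNA alone TAP2 204769_s_at was called higher at 8 h (0.58, limma, adjusted p = 0.0191). TAPBP 210294_at was at -0.63 at 4 h (limma, adjusted p = 0.101), and was called lower there with the Ambion siRNA alone (-0.96, 0.0305) and with each siRNA and time as a group (-0.63, 0.0327). The Dharmacon control lay above the Sigma-Aldrich control for PSMB9, TAPBP (208829_at) and TAP2, by 0.28 each over the 3 times (limma, adjusted p = 0.000908, 0.00371 and 0.00879). Between the control siRNAs 4 of the 21 probe sets were higher with the Dharmacon one and 1, of HLA-E, was lower (23.8%), against 25.6% of all probe sets (10.5% higher and 15.2% lower).

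TAP2 (chr6:32821831-32838739) was the only one of the 10 genes with a probe set called between the NFYB siRNAs, 1 of 21 (4.76%), lower with the Ambion siRNA, against 17.1% of all probe sets (9.75% higher and 7.33% lower). On 204769_s_at the Ambion siRNA gave 416, 463 and 465 at 0 h, 367, 399.8 and 447 at 4 h, and 306, 310.2 and 405 at 8 h. The Dharmacon NFYB siRNA gave 632, 759 and 847 at 0 h, 477, 626 and 648 at 4 h, and 518, 548 and 587 at 8 h. All 9 Ambion arrays lay below all 9 Dharmacon arrays, and the mean difference over the 3 times was -0.65 ± 0.08 (limma, adjusted p = 3.82e-07). Beside the control siRNAs the Ambion siRNA was lower at 0 h (-0.41 against both controls together) and the Dharmacon siRNA higher (0.32), so the pooled TAP2 change of -0.05 at 0 h is a mean of opposite values. The dim set 204770_at was called higher at 8 h, with 29.0 to 46.1 (median 39.0) for NFYB siRNA and 2.50 to 28.4 (median 5.87) for control siRNA (2.44 ± 0.61, limma, adjusted p = 0.0141), a call lost with siRNA as a random block (0.0687) and against the Dharmacon control alone (1.80, 0.136). The other dim set, 208428_at, was not called at any time. Against the pooled controls it gave -1.27 (Ambion) and -1.09 (Dharmacon) at 0 h, and 1.94 (Ambion) and 1.32 (Dharmacon) at 8 h.

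Both class II genes of the 10 were dim in these cells. HLA-DRA, the alpha chain of HLA-DR (chr6:32439887-32445046), had median signals of 2.86 to 13.0 in NFYB siRNA groups and 3.29 to 10.5 in control siRNA groups on 208894_at, and HLA-DMA, which edits the class II peptide (chr6:32948618-32953097), had medians of 23.6 to 30.1 with NFYB siRNA and 35.7 to 36.4 with control siRNA. Neither was called in any comparison, and the 95% interval of the HLA-DRA change at 8 h, -2.70 to 0.26 on 208894_at, is too wide to settle a direction. The HLA-DMA change was -0.31 ± 0.35, -0.81 ± 0.35 and -0.57 ± 0.35 at 0, 4 and 8 h (limma, adjusted p = 0.76, 0.262 and 0.448).

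With 8 h of OHT in control siRNA cells, 8 of the 21 probe sets were called, 2 higher and 6 lower, 38.1% of them against 49.9% of all probe sets tested (20.3% higher and 29.6% lower). At 4 h 2 were higher and 5 lower, against 39.3% of all called (16.1% higher and 23.3% lower). In NFYB siRNA cells 2 were higher and 5 lower at 8 h, against 47.9% of all called (18.5% higher and 29.4% lower). TAP1 and PSMB9 were the higher ones in each comparison. The median change of the 21 at 8 h was -0.21 in NFYB siRNA cells and -0.09 in control siRNA cells, beside -0.15 (NFYB siRNA) and -0.10 (control siRNA) over all sets. The comparisons with NFYB siRNA and those with time share the control siRNA arrays.

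TAP1, the first subunit of the peptide transporter (chr6:32845209-32853704), had 213 to 342 (median 262), 435 to 504 (median 449) and 592 to 671 (median 615) at 0, 4 and 8 h in NFYB siRNA cells. In control siRNA cells it had 262 to 354 (median 304), 469 to 519 (median 498) and 596 to 827 (median 739). Its signals at 0, 4 and 8 h did not overlap within either arm, and at 4 h in control siRNA cells it had changed by 0.70 ± 0.09 (limma, adjusted p = 4.37e-08). The 8 h change was 1.20 ± 0.09 in NFYB siRNA cells and 1.23 ± 0.09 in control siRNA cells, 2.30-fold and 2.35-fold (limma, adjusted p = 4.69e-14 and 2.28e-14), and their difference was -0.03 with a 95% interval of -0.29 to 0.23.

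PSMB9, an interferon-inducible catalytic subunit of the immunoproteasome (chr6:32854192-32859851), had medians of 571, 944 and 1058 at 0, 4 and 8 h in NFYB siRNA cells and of 618, 892 and 1187 in control siRNA cells. All 6 arrays at 8 h lay above all 6 at 0 h in both arms. The 8 h change was 0.89 ± 0.11 in NFYB siRNA cells and 1.01 ± 0.11 in control siRNA cells, 1.85-fold and 2.01-fold (limma, adjusted p = 4.26e-09 and 2.24e-10), with a difference of -0.12 (95% interval -0.42 to 0.19). Each of the 4 siRNAs showed both changes, TAP1 by 1.03 to 1.43 and PSMB9 by 0.80 to 1.18.

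**Figure D4:**
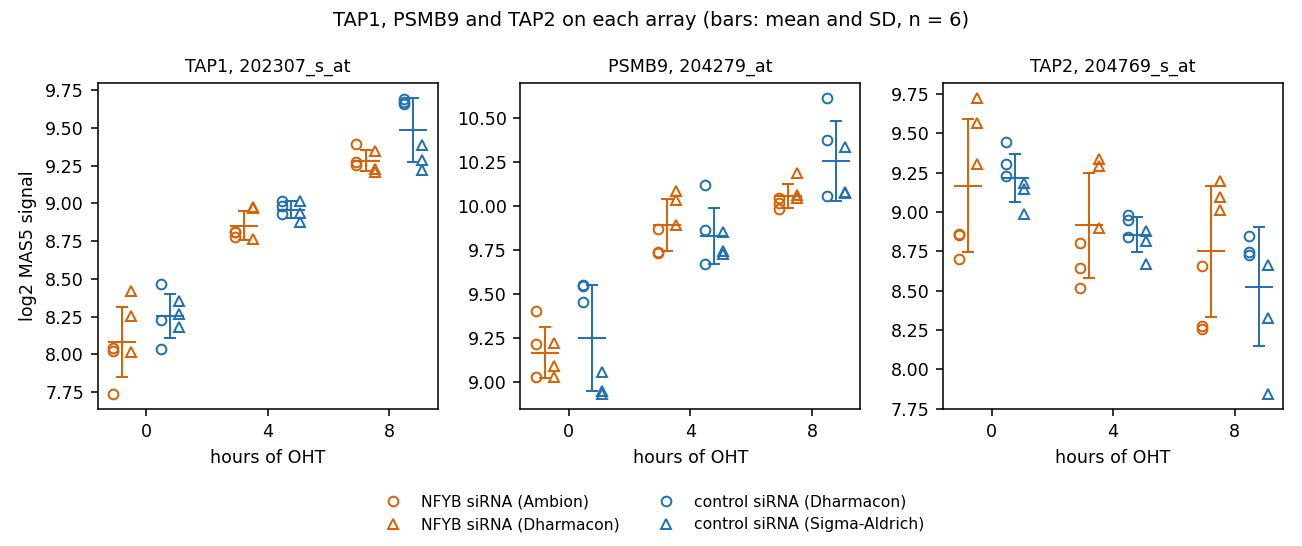
Log2 MAS5 signal of TAP1, PSMB9 and TAP2 on each array (vertical axis, a separate scale per panel) by hours of OHT, NFYB siRNA on the left and control siRNA on the right, with bars for the mean and SD of 6 arrays. TAP1 and PSMB9 are higher at 8 h than at 0 h in both arms, and for TAP2 the Ambion siRNA (orange circles) lies below the Dharmacon NFYB siRNA (orange triangles).

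TAP2, which pairs with TAP1, had values of the opposite sign on 204769_s_at and fell in control siRNA cells. Its log2 change at 8 h was -0.42 ± 0.18 in NFYB siRNA cells (limma, adjusted p = 0.051) and -0.69 ± 0.18 in control siRNA cells (adjusted p = 0.00119), where all 6 arrays at 8 h lay below all 6 at 0 h. All 4 siRNAs had a negative 8 h value, between -0.83 and -0.41, and with the Dharmacon control alone the value was -0.55 (limma, adjusted p = 0.0778). With siRNA as a random block the NFYB siRNA value passed the threshold as well (limma, adjusted p = 0.00811). The dim TAP2 set 204770_at pointed up in NFYB siRNA cells (1.42, limma, adjusted p = 0.0556), was called higher with siRNA as a random block (0.0462), and gave -0.45 in control siRNA cells (0.589), so the TAP2 sets do not share a direction in NFYB siRNA cells. The difference of the arms was 0.27 with a 95% interval of -0.24 to 0.78. TAPBP (chr6:33299694-33314078) was not called with OHT on either set in either arm, and on 208829_at its medians at 0, 4 and 8 h were 1098, 1014 and 1016 with NFYB siRNA and 1035, 1148 and 1110.3 with control siRNA.

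BTN3A2 fell with OHT on all 3 probe sets in both arms. At 8 h 209846_s_at changed by -1.64 ± 0.17 in NFYB siRNA cells and -1.16 ± 0.17 in control siRNA cells, and 204820_s_at by -1.77 ± 0.16 and -1.75 ± 0.16 (limma, adjusted p of 1.99e-07 or less). For 212613_at the values were -1.66 ± 0.27 in NFYB siRNA cells and -1.13 ± 0.27 in control siRNA cells (limma, adjusted p = 2.12e-06 and 0.000501). At 4 h in control siRNA cells the 3 sets gave -0.70, -1.05 and -0.67, all called. The last (limma, adjusted p = 0.0449) was lost without Dharmacon control 0 h replicate 1, 2 or 3 or 4 h replicate 1, or Sigma-Aldrich control 0 h replicate 3 or 4 h replicate 1 or 3 (-0.67 to -0.55, 0.0624 to 0.12). The differences of the 8 h responses, -0.48, -0.03 and -0.53, were not called (limma, adjusted p = 0.703, 0.991 and 0.827), and the intervals of the first and the third reach -0.96 and -1.30.

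**Figure D5:**
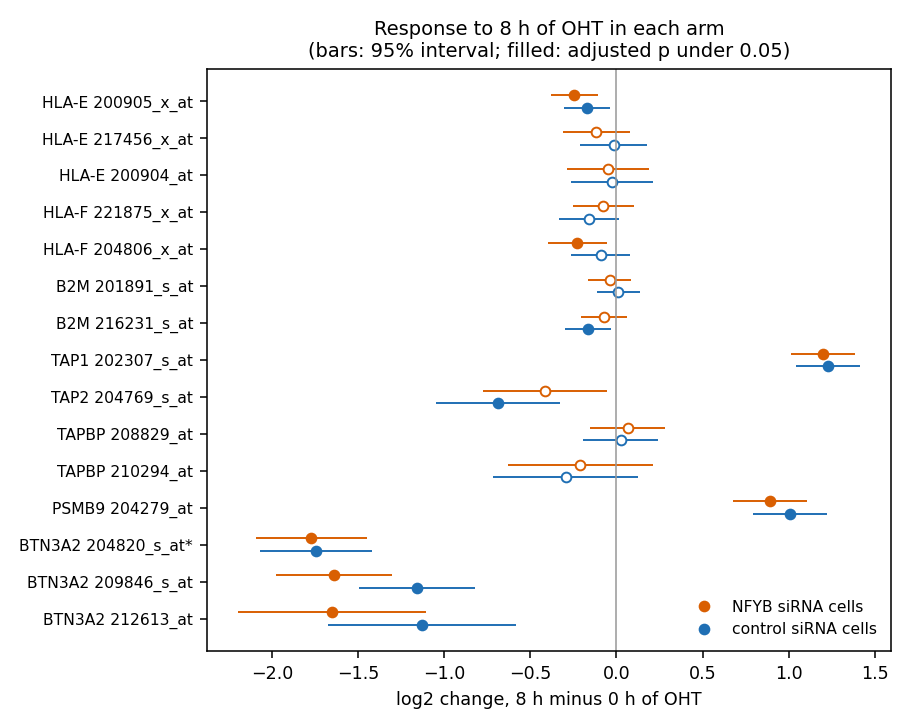
Log2 change between 8 h and 0 h of OHT (horizontal axis) in NFYB siRNA cells (orange, upper point) and control siRNA cells (blue, lower point) for the 15 probe sets in the upper 60% by signal, with 95% intervals; filled points have a limma adjusted p under 0.05. TAP1 and PSMB9 lie between 0.89 and 1.23, the BTN3A2 sets between -1.77 and -1.13, and the intervals of the arms overlap for each set.

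The called changes of class I chains with OHT were small. HLA-E changed on 200905_x_at by -0.24 ± 0.07 in NFYB siRNA cells and by -0.17 ± 0.07 in control siRNA cells at 8 h (limma, adjusted p = 0.00214 and 0.0308), the second call being lost on leaving out Dharmacon control 0 h replicate 3, 8 h replicate 1, 2 or 3, or Sigma-Aldrich control 0 h replicate 3 (-0.16 to -0.13, 0.0534 to 0.119). HLA-F 204806_x_at was -0.23 ± 0.08 in NFYB siRNA cells (limma, adjusted p = 0.0227) and -0.09 ± 0.08 in control siRNA cells (0.389). The NFYB siRNA call was lost without Ambion NFYB 8 h replicate 1, Dharmacon NFYB 0 h replicate 2 or 3, or Dharmacon NFYB 8 h replicate 2 (-0.21 to -0.19, limma, adjusted p of 0.0504 to 0.0714). At 4 h in control siRNA cells HLA-E 200905_x_at gave -0.18 ± 0.07 and HLA-F 221875_x_at -0.23 ± 0.09 (limma, adjusted p = 0.0274 and 0.0286). The HLA-E call was lost without Dharmacon control 4 h replicate 1, 2 or 3 or Sigma-Aldrich control 0 h replicate 3 (0.0715 to 0.107), and the HLA-F call without Dharmacon control 0 h replicate 1 or 2 or Sigma-Aldrich control 4 h replicate 2 or 3 (0.0636 to 0.106). B2M 216231_s_at was -0.07 ± 0.07 in NFYB siRNA cells and -0.16 ± 0.07 in control siRNA cells (limma, adjusted p = 0.403 and 0.0375), and the second call was lost in 8 of 12 fits that each left out 1 array (-0.17 to -0.14, 0.0514 to 0.0877) and after quantile normalization (0.976). The other B2M set, 201891_s_at, gave -0.04 in NFYB siRNA cells and 0.01 in control siRNA cells, the second being 0.18 after quantile normalization (limma, adjusted p = 0.00252), so the data give no direction for B2M. For the difference of the 8 h responses 0 of the 21 probe sets were called by limma, with 3 at an unadjusted p under 0.05, against 0.203% of all probe sets called (0.171% higher and 0.0315% lower).

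Other genes of the pathway were read on 1 probe set each. Of 6 other class I genes measured, 2 were lower with NFYB siRNA at 8 h and 0 higher (2.46% and 2.18% of all probe sets), with a median of -0.23. At 0 h and at 4 h 1 was lower (2.0% and 1.45% of all probe sets). The log2 change was -0.46 ± 0.12 for MICA, a stress ligand of the NKG2D receptor, and -0.39 ± 0.11 for the HLA-G set, annotated to a nonclassical heavy chain (limma, adjusted p = 0.0202 and 0.0395). The name of the HLA-G set, like those of the brighter HLA-B and HLA-C sets, ends in x_at. Its probes can therefore also bind transcripts of other class I heavy chains. How much of its signal is HLA-G RNA was not tested. MICA was also lower at 0 h and 4 h (-0.53 and -0.47), with signals at 0 h of 770 to 1156 (median 983) with NFYB siRNA and 1201 to 1835 (median 1376) with control siRNA. Against the Sigma-Aldrich control alone MICA was not called at 0, 4 or 8 h (limma, adjusted p = 0.0867, 0.069 and 0.374), nor with the Ambion siRNA alone (0.213, 0.451 and 0.136). Its 8 h call was lost without Dharmacon control replicate 1, 2 or 3 (limma, adjusted p of 0.0522 to 0.0754), and its 4 h call in 6 of 12 fits that each left out 1 array. The HLA-G call was lost with siRNA as a random block (0.125) and in 7 of 12 such fits. HLA-B gave -0.22 and HLA-C -0.13 at 8 h, neither called, while the Dharmacon control exceeded the Sigma-Aldrich control for 4 of the 6 genes, HLA-C by 0.46, HLA-B by 0.49, MICA by 0.33 and MICB by 0.58.

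Of the 5 other butyrophilins, 1 was lower with NFYB siRNA at 0 h, 1 at 4 h and 3 at 8 h, against 2.0%, 1.45% and 2.46% of all probe sets, and 0 were higher, with medians of -0.53, -0.41 and -0.55. BTN2A1, which acts with BTN3A1 in gamma delta T cell recognition, was lower at 0, 4 and 8 h, its log2 changes being -0.62 ± 0.13, -0.50 ± 0.13 and -0.55 ± 0.13 (limma, adjusted p = 0.00249, 0.0212 and 0.00726). The 4 h call was lost without Sigma-Aldrich control replicate 1 or 3 or Dharmacon NFYB replicate 1, 2 or 3 (0.0528 to 0.0733). Against the Dharmacon control alone BTN2A1 was not called at 4 h or 8 h (limma, adjusted p = 0.27 and 0.0551), nor with the Ambion siRNA alone (0.26 and 0.182). Its signals at 8 h were 73.6 to 140.3 (median 115) with NFYB siRNA and 152 to 168 (median 164) with control siRNA, without overlap. The name of the BTN2A1 set ends in x_at, so its probes can also bind related transcripts. BTN3A1, whose sequence is close to BTN3A2, was at -0.65 ± 0.19 at 8 h (limma, adjusted p = 0.0444), a call lost with siRNA as a random block (0.144) and in 9 of 12 fits that each left out 1 array, and the dim BTN3A3 was the other. With 8 h of OHT 4 of the 5 fell in control siRNA cells, against 29.6% of all probe sets, with log2 changes of -1.69 ± 0.19 for BTN3A1 and -0.99 ± 0.13 for BTN2A1 (limma, adjusted p = 1.93e-09 and 2.28e-08).

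Of 9 other peptide supply and loading genes measured, 0 were called with NFYB siRNA at any time, and 2 fell with 8 h of OHT in control siRNA cells, a smaller share than the 29.6% lower of all probe sets. They were PSMB10, another immunoproteasome subunit, with a log2 change of -0.55 ± 0.14, and the dim ERAP2, a peptide-trimming enzyme, with -2.14 ± 0.69 (limma, adjusted p = 0.00109 and 0.00925). Of the immunoproteasome subunits PSMB9 was higher and PSMB10 lower at 8 h, and PSMB8 was not called (-0.07 ± 0.07, limma, adjusted p = 0.445). Of 11 other class II genes measured, 5 in the upper 60%, 1 was lower with NFYB siRNA at 4 h and at 8 h (1.45% and 2.46% of all probe sets). At 0 h 0 were lower (2.0%), and 0 were higher at any time. The lower one was the dim HLA-DPA1, a class II alpha chain outside those 5. Its log2 changes at 4 h and 8 h were -0.73 ± 0.21 and -0.82 ± 0.21 (limma, adjusted p = 0.0463 and 0.0154). The 4 h call was lost in 10 of 12 fits that each left out 1 array, and the 8 h call with siRNA as a random block (limma, adjusted p = 0.0784). The HLA-DQB1 set rose with 8 h of OHT by 0.99 ± 0.14 in NFYB siRNA cells and by 0.97 ± 0.14 in control siRNA cells (limma, adjusted p = 9.39e-08 and 1.56e-07). Its name ends in x_at, so its probes can also bind related transcripts, and how much of its signal is HLA-DQB1 RNA was not tested. No other of the 11 was called with 8 h of OHT in either arm, against 18.5% (NFYB siRNA) and 20.3% (control siRNA) higher of all probe sets.

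Among 13 regulators measured, 2 were higher with NFYB siRNA at 0, 4 and 8 h, against 1.58%, 1.48% and 2.18% of all probe sets. At 0 h and at 4 h 1 was lower, against 2.0% and 1.45%, and at 8 h 0, against 2.46%. The higher ones were the NFYB partners NFYA and NFYC, at 8 h by 0.94 ± 0.09 and 0.72 ± 0.09 (limma, adjusted p = 3.8e-09 and 1.3e-06). The lower one was the interferon gamma receptor chain IFNGR2 (-0.33 at 0 h and -0.25 at 4 h). Its 4 h call was lost in 10 of 12 fits that each left out 1 array. Its 0 h call was lost against the Dharmacon control alone (limma, adjusted p = 0.0703) and with the Ambion siRNA alone (0.177). With 8 h of OHT in control siRNA cells 5 regulators rose and 6 fell, against 20.3% and 29.6% of all probe sets. IRF1, an interferon-induced activator of class I and TAP1 genes, averaged 912 ± 111 at 8 h and 210 ± 41.7 at 0 h (SD, n = 6 each), a change of 2.13 ± 0.11, and JAK2, a kinase of the interferon gamma receptor, changed by 2.36 ± 0.16 (limma, adjusted p = 4.04e-19 and 2.12e-15). IFNGR1, the other receptor chain, changed by -1.82 ± 0.12 and RFX5, of the RFX complex of MHC promoters, by -1.34 ± 0.13 (limma, adjusted p = 8.37e-16 and 3.33e-11). Of the other subunits of that complex RFXAP changed by 1.91 ± 0.33 and RFXANK by -0.70 ± 0.12 (limma, adjusted p = 5.14e-06 and 3.63e-06). Of 27 interferon-response genes measured, 15 were lower and 0 higher with 8 h of OHT in control siRNA cells, against 29.6% lower and 20.3% higher over all probe sets, with a median of -0.82 beside -0.10. Of the 11 in the upper 60% by signal, 10 were lower. IFIT5, an RNA-binding protein, changed by -1.56 ± 0.11 and IFI44 by -2.03 ± 0.19 (limma, adjusted p = 1.1e-14 and 2.34e-11). With NFYB siRNA 3 of the 27 were lower at 0 h, 1 was lower at 4 h, and 1 was higher and 1 lower at 8 h. Over all probe sets 2.0%, 1.45% and 2.46% were lower at 0, 4 and 8 h, and 1.58%, 1.48% and 2.18% were higher. IFI6 was lower at all 3 times (-0.48, -0.50 and -0.40). With the Ambion siRNA alone its 4 h and 8 h calls were lost (limma, adjusted p = 0.0852 and 0.062), and against the Sigma-Aldrich control alone its 8 h call (0.128). At 0 h BST2, which tethers budding virus, and the dim IFITM1 were lower too (-0.82 and -0.94). The BST2 call was lost without Dharmacon NFYB replicate 2 or 3 and the IFITM1 call in 8 of 12 fits that each left out 1 array. With the Ambion siRNA alone neither was called (limma, adjusted p = 0.216 for BST2 and 0.444 for IFITM1). BST2 was not called against the Dharmacon or the Sigma-Aldrich control alone (0.0749 and 0.0778), but was with siRNA as a random block (0.0075). IFITM1 was lost with that block (0.125) and against the Dharmacon control alone (0.414). ISG20 was the gene called higher at 8 h (0.64, limma, adjusted p = 0.00585), and leaving out any single array kept the call. It was lost against the Sigma-Aldrich control alone (0.0613) and with the Ambion siRNA alone (0.127). The median of the 27 was -0.23, -0.05 and 0.03 at 0, 4 and 8 h.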

How the data were processed

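The authors deposited 1 table of linear MAS5 signal intensities, made in Affymetrix Expression Console (version not given in the sources used here) with every array brought to the same trimmed mean, 500, the outer 2% of values at either end being excluded. No detection calls were used, so dimness was judged from mean signal. Of 22277 probe sets 62 controls were left out. Groups came from the sample labels, which call the replicates biological. No 2 arrays were identical. The log2 signals, taken with no offset, entered a limma model (version 3.58.1, R 4.3.3) of 6 groups, each with 6 arrays (trended eBayes, 36.3 degrees of freedom), with Benjamini-Hochberg adjustment over 22215 probe sets. Differences between siRNAs of an arm came from a fit of 12 groups, as the mean over times. Errors on log2 changes are SEs and intervals 95%. The fit was tested on simulated data. The members and lists were chosen with earlier results of these data known. All members were described; other genes were read on their brightest 1-gene probe set and named where called or where the pathway turned on them. The alternatives tried were quantile normalization, an added offset of 16, the upper 60% by signal, other groupings and blocks, single siRNAs, the methods' t-test, and leaving out replicates or arrays. Same-numbered arrays had a median r of 0.009 over 198 pairs (-0.003 for other numbers), but r reached 0.288 and 29 pairs exceeded 0.1. A median near that of other numbers cannot exclude pairing of some arrays. The numbers were not taken as pairs in the main fit, and a fit with them as a block was among the alternatives. Gene positions and promoters came from RefSeq (GRCh38.p14) and probe annotation from the platform table.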

Additional observations from a re-analysis of the deposited data

Results flagged for a closer look

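Of 126 sets of 6 arrays (21 probe sets, 2 arms, 3 times), 7 held 1 array far from the other 5, where chance alone gives about 1 in 20. All 7 were in NFYB siRNA cells, and 4 were in dim probe sets. For BTN3A2, 204820_s_at read 53.0 in Ambion replicate 1 at 4 h (78.1 to 96.5 in the others), and 212613_at read 35.0 in Dharmacon replicate 1 at 0 h (73.4 to 110.4) and 8.52 in Ambion replicate 1 at 8 h (23.3 to 36.3). For HLA-F, the dim 221978_at read 16.2 in Dharmacon replicate 1 at 0 h (31.1 to 45.7) and 6.28 in Ambion replicate 3 at 8 h (21.6 to 29.8). For TAP2, the dim 204770_at read 42.7 in Dharmacon replicate 3 at 4 h (5.73 to 11.2), and the dim 208428_at read 2.24 in Dharmacon replicate 1 at 8 h (8.10 to 14.4). TAP2 204769_s_at differed between the NFYB siRNAs, Ambion minus Dharmacon -0.65 (limma, adjusted p = 3.82e-07, 9 of 9 arrays lower). What sets these arrays or siRNAs apart was not tested.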

How the results depend on the processing

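Of 459 alternative values for the 39 called changes of single probe sets, 388 stayed called in the same direction, 71 were no longer called and 0 turned. The number of the 21 probe sets called moved by over 1.5 times in few settings. With NFYB siRNA it was 5 at 4 h with each siRNA and time as a group (2 as reported), and at 8 h it was 2 with siRNA as a random block and 3 with the Ambion siRNA alone (6 as reported). For 4 h of OHT in control siRNA cells it was 3 with the Sigma-Aldrich control alone (7 as reported), and between the NFYB siRNAs 2 after quantile normalization (1 as reported). The causes were not tested, but single siRNAs and left-out replicates mean fewer arrays. Leaving out replicates or single arrays gave 2 to 6 at 8 h with NFYB siRNA, being 2 without all arrays numbered 1, 2 or 3, 4 to 7 for 4 h of OHT, and 2 to 4 between the control siRNAs (5 as reported). With the replicate number as a block the counts stayed at 3, 2 and 6 with NFYB siRNA at 0, 4 and 8 h, 8 and 7 for 8 and 4 h of OHT in control siRNA cells, 7 in NFYB siRNA cells, 0 for the difference, and 1 and 5 between siRNAs of an arm. Of 36 arrays 17 correlated best with another array of their own number. This is a larger share than the 1 in 3 that numbers without meaning would give, and whether it reflects pairing was not tested. Dim probe sets limit HLA-DRA, HLA-DMA and 2 TAP2 sets, and without detection calls their absence cannot be stated.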
